A study of Mus musculus with 10 samples.

Results

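Engulfment of a dying cell needs a signal from the receptor to the cytoskeleton and then the assembly of actin around the corpse, and 35 genes of this route were followed here in mouse macrophages. They were taken by symbol from a given list, and each matched 1 of the 55414 gene identifiers counted. The list holds 12 genes of ELMO-DOCK-Rac signalling, 2 other small GTPases (Cdc42 and Rhoa), 5 of the WAVE complex, 3 of the WASP and cortactin-like activators, 7 of the Arp2/3 complex, 3 of actin turnover and 3 of membrane linkage and scission.

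Messenger RNA was sequenced in 10 libraries. Macrophages were separated by FACS into those carrying engulfed apoptotic material (Eff+) and those without it (Eff-). The wound set (n = 6) had 3 Eff+ and 3 Eff- libraries from day 3 skin wounds of LysMCreER/mTmG mice given tamoxifen for 6 days. In these mice, Eff+ and Eff- alike, a tamoxifen-activated Cre is driven from the lysozyme M locus, which is active in macrophages and neutrophils, so that recombined cells exchange membrane tdTomato for membrane GFP. The culture set (n = 4) had 2 Eff+ and 2 Eff- libraries of macrophages grown from wild-type bone marrow. They had 7 days of GM-CSF, and their labels list 12 h with apoptotic fibroblasts that carried a tracer. The names of the 2 cultured Eff- columns carry the letters NOAC, so it is unclear whether those cells had met apoptotic fibroblasts.

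In the classical route, engulfment receptors and the small GTPase RhoG recruit the ELMO-DOCK pair, which exchanges GDP for GTP on Rac. Active Rac opens the WAVE complex, and Cdc42 opens WASP. Both then switch on the Arp2/3 complex, which grows branched actin filaments that push the membrane around the target. Coronin, cofilin and profilin recycle the filaments, ezrin and moesin tie them to the membrane, and dynamin pinches off the vesicle.

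Total counts were 39735437 to 57308823 in the wound libraries and 17622740 to 27261880 in the culture libraries. Some libraries stood apart from the rest of their group. Lyz2, the lysozyme M gene, had 159484 and 345046 counts in the wound Eff+ and Eff- libraries numbered 2 and 160 to 413 counts in the other 4. In culture, the libraries numbered 1 had counts in 35649 (Eff+) and 44836 (Eff-) genes, against 19649 and 18171 for those numbered 2. All 12 macrophage markers checked had counts in every group. Neutrophil markers (18 genes) took 3.12 to 3.86% of counts in wound Eff+ libraries, 0.541 to 1.01% in wound Eff- libraries and 0.169 to 0.309% in culture. Most of the culture share was Mmp8, at 22838 to 73092 counts per library. In the wounds 1 of the 18 was at 0 in each of 3 libraries: Mpo in the Eff+ library numbered 3, Camp in the Eff- library numbered 1 and Elane in the Eff- library numbered 2. In culture 9 were at 0 in the Eff+ library numbered 2, S100a9 and Ly6g among them, and 1 (Retnlg) in the Eff- library numbered 2. Of the 16 that were tested in the wounds, 14 rose in Eff+ and none fell. Of the 12 macrophage markers 1 rose and 5 fell. Keratinocyte markers (8 genes) took 0.000479 to 0.00225% of counts in wound Eff+ and 4.99e-05 to 0.000162% in wound Eff-, where 6 of them, Krt14 and Krt5 included, were at 0 in every library. Skeletal muscle markers (6 genes) took 0.00223 to 0.00493% in wound Eff+ and 0.000417 to 0.00211% in wound Eff-. Fibroblast markers (10 genes) took 0.0678 to 0.230% and 0.0242 to 0.139%, with overlap. Of those tested in the wounds, 2 of 3 keratinocyte, 1 of 6 muscle and 2 of 10 fibroblast markers rose and none fell. Levels below are CPM, the counts of a gene per 1000000 counts of its library, scaled within each set by edgeR's trimmed mean of M-values, so wound and culture levels were not set on 1 scale and no test was made between them.

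In wound macrophages, 4 of the 35 genes rose in Eff+ cells and 1 fell. The 4 were Rhog, the GTPase that brings ELMO to the membrane, Rac2, the Rac of blood cells, Wipf1, the partner that stabilises WASP, and Arpc3, an Arp2/3 subunit. The gene that fell was Elmo2, 1 of the ELMO paralogues. Calls are those of edgeR's quasi-likelihood test of Eff+ against Eff- over 14908 genes, with Benjamini-Hochberg adjusted p under 0.05. The 4 are 11.4% of the 35, beside 7.39% of all genes tested that were called higher. The 1 is 2.86%, beside 3.79% called lower. The fold change was above 0 for 28 of the 35 and below 0 for 7, with a median log2 of 0.30, beside -0.03 over all genes tested. With library totals as the only scaling, 1 gene was called higher (Rhog) and 3 lower (Elmo2, Dock1 and Cyfip1), or 2.86 and 8.57% of the 35, beside 4.79 and 17.8% of all genes. Under that scaling 13 of the 35 were above 0, and the median was -0.09 beside -0.42 over all genes.

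Without both wound libraries numbered 2, none of the 35 was called, nor was any other gene. These are bulk libraries, in which fewer cells of a type and less RNA per cell cannot be told apart. Neutrophil, keratinocyte and skeletal muscle marker shares were each higher in every wound Eff+ library than in any wound Eff- library. Endothelial marker shares (0.00309 to 0.00319% in Eff+, 0.00510 to 0.00646% in Eff-) and B cell marker shares (0.000166 to 0.000575% and 0.000652 to 0.00143%) were each lower in every Eff+ library. The part of these marker sets in the results below, and that of the fibroblast markers, was not tested.

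**Figure D1:**
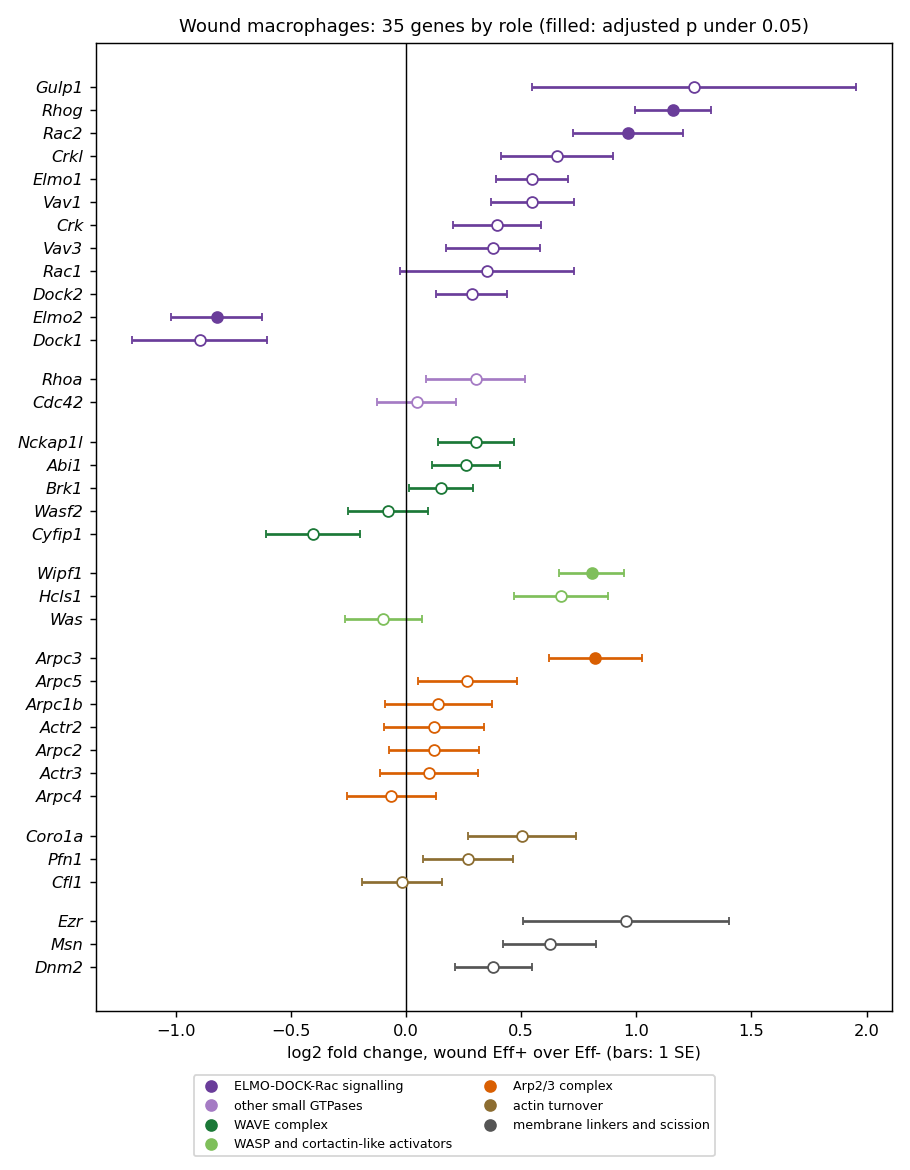
Log2 fold change of the 35 genes between wound Eff+ and Eff- macrophages (x axis), grouped and coloured by role, with bars of 1 standard error. Filled points are the 5 genes past the adjusted p threshold: Rhog, Rac2, Wipf1 and Arpc3 to the right of 0, Elmo2 to the left.

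Among the GTPases at the head of the route, Rhog showed the clearest separation. Rhog (ENSMUSG00000073982) lies on chromosome 7 of GRCm39, from 101888330 to 101905261 on the minus strand. It stood at 294, 368 and 296 CPM in the wound Eff+ libraries and at 145, 135 and 149.5 CPM in the Eff- libraries. Every Eff+ library lay above every Eff- library, with little spread within a group. The difference was 2.23-fold (log2 1.16, SE 0.16, adjusted p = 0.0106 by edgeR's quasi-likelihood test). Without both libraries numbered 2 its log2 difference was 1.00, with an adjusted p of 0.237. Leaving out the Eff+ or the Eff- library numbered 2 alone also ended the call, at adjusted p of 0.0625 and 0.0598 (log2 1.04 and 1.09, edgeR). With library totals as the only scaling Rhog was still called, at a log2 of 0.76 (adjusted p = 0.0152, edgeR).

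Rac2, which also activates the NADPH oxidase of phagocytes (ENSMUSG00000033220, chromosome 15 from 78443367 to 78456983, minus strand), stood at 842, 762 and 527 CPM in Eff+ and at 449, 335 and 308 CPM in Eff-. The groups did not overlap, although the lowest Eff+ and highest Eff- libraries were close. It rose 1.95-fold (log2 0.96, SE 0.24, adjusted p = 0.0420, edgeR). Without both libraries numbered 2 the log2 difference was 0.85 (adjusted p = 0.353, edgeR). Leaving out any 1 library other than the Eff+ library numbered 3 ended the call, at adjusted p of 0.0646 to 0.150 (log2 0.82 to 1.12, edgeR). Rac1, the Rac found in all tissues, stood at 358, 229 and 167 CPM in Eff+ and at 294, 179 and 119 CPM in Eff-. Its groups overlapped, and the log2 difference of 0.35 (SE 0.38) did not pass the test. Rac1 varied by number in both groups, with the libraries numbered 1 the highest. Per kilobase of annotated gene length, Rac2 made up 77.3, 82.8 and 82.0% of the pair's reads in Eff+ and 68.9, 73.1 and 79.0% in Eff-. It was the larger of the pair in all 10 libraries, and the wound groups overlapped in this share.

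Of the ELMO scaffolds, 1 passed the test. Elmo2, the widely expressed paralogue (ENSMUSG00000017670, chromosome 2 from 165129951 to 165168399, minus strand), stood at 37.9, 50.9 and 53.7 CPM in wound Eff+ and at 85.8, 69.6 and 96.7 CPM in wound Eff-. No Eff+ library reached the lowest Eff- library. It fell 1.77-fold (log2 -0.82, SE 0.20, adjusted p = 0.0384, edgeR). Its call was lost on leaving out any 1 of the 6 libraries, with adjusted p of 0.0694 to 0.128 and log2 differences of -0.97 to -0.68, and without both libraries numbered 2 (log2 -0.995, adjusted p = 0.247, edgeR). Elmo1 stood at 112, 137 and 109 CPM in Eff+ and at 85.5, 76.3 and 82.7 CPM in Eff-. Those groups did not overlap either, but the log2 difference of 0.55 (SE 0.16, adjusted p = 0.0613, edgeR) missed the threshold. The span of Elmo1 overlaps that of Gm32036, and whether their exons overlap was not checked.

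A share within the pair does not depend on how libraries are scaled to each other. Per kilobase, Elmo1 made up 60.9, 58.7 and 51.8% of ELMO reads in wound Eff+ and 34.5, 36.7 and 31.2% in wound Eff-. By this measure Elmo1 was the larger paralogue in all 3 Eff+ libraries and the smaller in all 3 Eff- libraries. Which of the pair is larger depends on the annotated lengths, 12580 bases for Elmo1 and 6652 for Elmo2. In counts, the Eff- libraries had 4303, 4011 and 3606 for Elmo1 and 4319, 3658 and 4213 for Elmo2. The mean share was 57.1% ± 4.77 (SD, n = 3) against 34.1% ± 2.79 (SD, n = 3). An exact two-sided permutation test of 3 against 3 cannot go below 0.1, the value that such a full separation gives. In culture the share was 22.7 and 26.6% in Eff+ and 23.6 and 23.6% in Eff-, with Elmo2 the larger in all 4.

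The DOCK exchange factors, partners of ELMO, gave values in the same 2 directions as the ELMO pair. Dock1, the broadly expressed one, stood at 10.5, 10.2 and 6.59 CPM in wound Eff+ and at 22.2, 12.5 and 16.2 CPM in wound Eff-. The groups did not overlap, and the log2 difference of -0.90 (SE 0.29, adjusted p = 0.0864, edgeR) did not pass. The span of Dock1 likewise overlaps that of Fam196a. Dock2, the DOCK of white blood cells, stood at 159.8, 169 and 162 CPM in Eff+ and at 151, 118 and 134 CPM in Eff-, without overlap (log2 0.28, SE 0.16, adjusted p = 0.266, edgeR). Per kilobase, Dock2 made up 92.6, 93.1 and 95.3% of the pair's reads in Eff+ and 84.8, 88.5 and 87.1% in Eff-. Dock2 was thus the larger in every wound library, and its share was higher in each Eff+ library than in any Eff- library. Culture libraries gave Dock2 shares of 64.6 and 71.0% in Eff+ and 64.3 and 75.7% in Eff-.

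**Figure D2:**
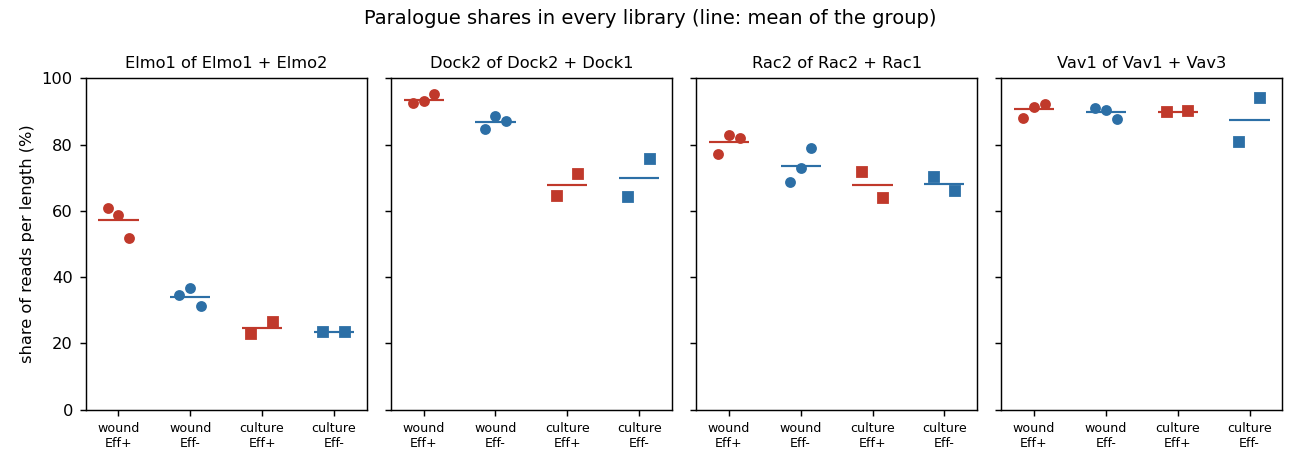
Share of the first-named paralogue in the reads per length of its pair (y axis, %), 1 point per library with a line at the group mean, for wound (circles) and culture (squares), Eff+ in red and Eff- in blue. The Elmo1 share lies between 51.8 and 60.9% in wound Eff+ and between 31.2 and 36.7% in wound Eff-, while the Vav1 share overlaps between groups.

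Adaptors and the Vav exchange factors feed Rac alongside ELMO and DOCK. Crk stood at 67.8, 48.1 and 46.0 CPM in wound Eff+ and at 40.4, 44.1 and 38.6 CPM in wound Eff- (log2 0.40, SE 0.19, adjusted p = 0.209, edgeR). Its paralogue Crkl stood at 29.9, 41.6 and 34.9 CPM in Eff+ and at 15.7, 26.8 and 25.2 CPM in Eff- (log2 0.65, SE 0.24, adjusted p = 0.120, edgeR). Both adaptors were higher in scaled CPM in every Eff+ library than in any Eff- library, and neither passed the test. With library totals as the only scaling the groups of both overlapped.

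Vav1, the exchange factor of blood cells, stood at 193, 284 and 243 CPM in wound Eff+ and at 168, 160.3 and 164 CPM in wound Eff-. The Eff+ group lay above the Eff- group with a wider spread (log2 0.55, SE 0.18, adjusted p = 0.0878, edgeR). Vav3 stood at 42.8, 42.8 and 32.6 CPM in Eff+ and at 26.5, 27.3 and 37.2 CPM in Eff-, with overlap (log2 0.38, SE 0.20, adjusted p = 0.257, edgeR). Gulp1, an adaptor that binds engulfment receptors, was low throughout. It had 170, 49 and 110 counts in wound Eff+, 94, 28 and 28 in wound Eff-, and 0 to 20 in culture, and its wound groups overlapped.

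Across the 12 signalling genes, 2 rose, 1 fell and 9 did not pass, with a median log2 of 0.47. In 7 of the 12 the groups did not overlap with Eff+ higher, and in 2 (Elmo2 and Dock1) with Eff+ lower. Over all 35 genes these counts were 14 and 3, the third being Cyfip1, beside 18.7 and 18.1% of all genes tested in the wounds. These counts are of scaled CPM. With library totals as the only scaling, of the 14 only Elmo1, Rhog, Wipf1 and Arpc3 stayed separated with Eff+ higher. The share of all genes was not counted under that scaling.

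Cdc42, the GTPase of filopodia and WASP, and Rhoa, which drives contraction, did not pass. Cdc42 stood at 963 to 1206 CPM in wound Eff+ and at 1028 to 1115 CPM in wound Eff- (log2 0.05, SE 0.17). Rhoa stood at 541 to 839 CPM in Eff+ and at 517 to 649 CPM in Eff- (log2 0.30, SE 0.21), and its span overlaps that of Tcta. Per kilobase Cdc42 was the most abundant of the 5 GTPases in wound Eff+, at a mean of 369 CPM per kilobase, ahead of Rac2 at 229, Rhog at 225, Rhoa at 92.4 and Rac1 at 55.9. In Eff- the means were 358 for Cdc42, 117 for Rac2, 101 for Rhog, 74.9 for Rhoa and 43.9 for Rac1. Rac2 and Rhog were neighbours in that order, and their libraries overlapped in both groups. In Eff- Rac2 ran from 99.3 to 144.6 CPM per kilobase and Rhog from 94.8 to 105.3.

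Promoter sequences are shown for the called genes that have an entry in RefSeq's table (Rhog, Wipf1, Arpc3 and Elmo2) and for Elmo1, as the paralogue of Elmo2. Rac2, Rac1, Nckap1l and Cyfip1 have no entry. Each window runs from 250 bases before to 50 after the gene's start on GRCm38.p6, 5′ to 3′ on the gene's strand. Capitals mark GAGGAA, or TTCCTC where it lies on the other strand, the core read by PU.1, the transcription factor that defines myeloid cells. Rhog has 1 match, at chr7:102250069-102250368 (minus strand); Wipf1 has 2, at chr2:73453840-73454139 (minus strand, shown because it is the window with matches among 3). Elmo1 has 2 just after its start, at chr13:20090257-20090556 (plus strand), shown because it is the 1 of its 2 windows with matches. Arpc3 at chr5:122391628-122391927 (plus strand) and Elmo2 at chr2:165326430-165326729 (minus strand) have none. Elmo2 has 3 windows, all without a match.
Rhog: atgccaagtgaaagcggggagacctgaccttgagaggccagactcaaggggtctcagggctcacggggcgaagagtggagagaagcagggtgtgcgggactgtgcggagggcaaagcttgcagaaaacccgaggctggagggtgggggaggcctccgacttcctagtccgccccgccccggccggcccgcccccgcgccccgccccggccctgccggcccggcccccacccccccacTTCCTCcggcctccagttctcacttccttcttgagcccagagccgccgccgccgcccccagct
Wipf1: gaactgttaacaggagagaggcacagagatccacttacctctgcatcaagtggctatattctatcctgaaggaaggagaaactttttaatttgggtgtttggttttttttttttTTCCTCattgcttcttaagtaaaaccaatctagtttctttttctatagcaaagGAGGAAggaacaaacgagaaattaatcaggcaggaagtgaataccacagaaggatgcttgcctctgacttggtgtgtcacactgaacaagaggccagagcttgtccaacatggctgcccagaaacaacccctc
Arpc3: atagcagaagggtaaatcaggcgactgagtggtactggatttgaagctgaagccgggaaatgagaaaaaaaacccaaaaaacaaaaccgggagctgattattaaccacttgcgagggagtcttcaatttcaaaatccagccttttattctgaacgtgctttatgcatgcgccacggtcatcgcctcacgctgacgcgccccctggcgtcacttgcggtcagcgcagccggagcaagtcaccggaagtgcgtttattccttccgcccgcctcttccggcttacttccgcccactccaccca
Elmo1: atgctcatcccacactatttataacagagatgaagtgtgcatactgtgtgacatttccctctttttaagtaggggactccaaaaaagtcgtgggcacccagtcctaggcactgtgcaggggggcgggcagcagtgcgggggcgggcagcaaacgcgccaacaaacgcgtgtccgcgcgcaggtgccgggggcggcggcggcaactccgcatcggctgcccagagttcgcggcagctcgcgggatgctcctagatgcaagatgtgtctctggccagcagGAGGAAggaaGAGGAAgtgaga
Elmo2: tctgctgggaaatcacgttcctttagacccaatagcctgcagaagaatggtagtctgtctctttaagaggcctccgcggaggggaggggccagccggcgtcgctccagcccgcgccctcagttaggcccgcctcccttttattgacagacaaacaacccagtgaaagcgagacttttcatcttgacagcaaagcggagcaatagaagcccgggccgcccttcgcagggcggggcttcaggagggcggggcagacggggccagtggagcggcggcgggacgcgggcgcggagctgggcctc

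The PU.1 core was found, on either strand, in 14 of the 41 promoter windows (34.1%) of the 31 genes with an entry, beside 9289 of 32851 windows (28.3%) over all genes. The CArG box of serum response factor, a regulator of many actin genes, was searched for by its usual consensus. It was found in 1 of the 41 windows (2.44%), that of Arpc4, beside 1.63% of all windows. The Arpc4 window holds no PU.1 core. A match is a run of letters in a window and no measurement of binding.

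The WAVE complex, of 5 proteins, holds its activator subunit shut until Rac binds through Cyfip1. None of its 5 genes passed in the wounds, and their median log2 difference was 0.15. Wasf2, the activator, stood at 39.0 to 51.5 CPM in Eff+ and at 43.4 to 53.3 CPM in Eff- (log2 -0.08, SE 0.17). Abi1 (log2 0.26, SE 0.15), Nckap1l, the blood cell form of the scaffold (log2 0.30, SE 0.16), and Brk1, the smallest subunit (log2 0.15, SE 0.14), were each higher in scaled CPM in every Eff+ library than in any Eff- library. With library totals as the only scaling, Abi1 and Brk1 were instead lower in every Eff+ library, and Nckap1l overlapped. Each kept its sign under 14 of 15 alternatives, with lowest log2 values of -0.13 (Abi1), -0.09 (Nckap1l) and -0.24 (Brk1). Cyfip1 stood at 279, 434 and 381 CPM in Eff+ and at 444, 470 and 533 CPM in Eff- (log2 -0.40, SE 0.21, adjusted p = 0.233, edgeR). It was the WAVE subunit with every Eff+ library below every Eff- library. The spans of Abi1 and of Cyfip1 overlap those of Pdss1 and Nipa2.

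Per kilobase the subunits were far from equal in the wound libraries. Brk1 averaged 112 CPM per kilobase in Eff+, Abi1 70.5, Nckap1l 47.8, Cyfip1 30.5 and Wasf2 7.49. In Eff- the means were 101, 58.9, 38.8, 40.4 and 7.90 in the same order of genes, so Nckap1l and Cyfip1 lay side by side there. The summed level of the 5 genes was 974 to 1227 CPM in Eff+ and 1061 to 1205 CPM in Eff-, with overlap. With library totals as the only scaling the sums were 864 to 1015 CPM in Eff+ and 1217 to 1321 CPM in Eff-, with every Eff+ library lower. The log2 difference of the sums was then -0.40, beside a median of -0.42 over all genes under that scaling.

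Beside WAVE stand WASP and its helpers. Wipf1, known as WIP (ENSMUSG00000075284, chromosome 2 from 73259954 to 73360078, minus strand), stood at 102, 100.1 and 105 CPM in wound Eff+ and at 61.1, 53.7 and 60.5 CPM in wound Eff-. The 3 libraries of each group lay close together, with a wide gap between the groups. Wipf1 rose 1.75-fold (log2 0.81, SE 0.14, adjusted p = 0.0158, edgeR). Without both libraries numbered 2 its log2 difference was 0.76 (adjusted p = 0.247, edgeR). Leaving out 1 library ended the call for the Eff+ library numbered 2 (adjusted p = 0.0785) and the Eff- libraries numbered 1 (0.0585) and 2 (0.0840), with log2 differences of 0.82, 0.82 and 0.72 (edgeR). Was, which encodes WASP itself, stood at 44.0 to 56.4 CPM in Eff+ and at 47.4 to 59.2 CPM in Eff- (log2 -0.10, SE 0.17). Hcls1, the blood cell relative of cortactin that steadies actin branches, stood at 486, 445 and 316 CPM in Eff+ and at 282, 271 and 229 CPM in Eff-. Its groups did not overlap, and its log2 difference of 0.67 (SE 0.21, adjusted p = 0.0731, edgeR) did not pass.

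**Figure D3:**
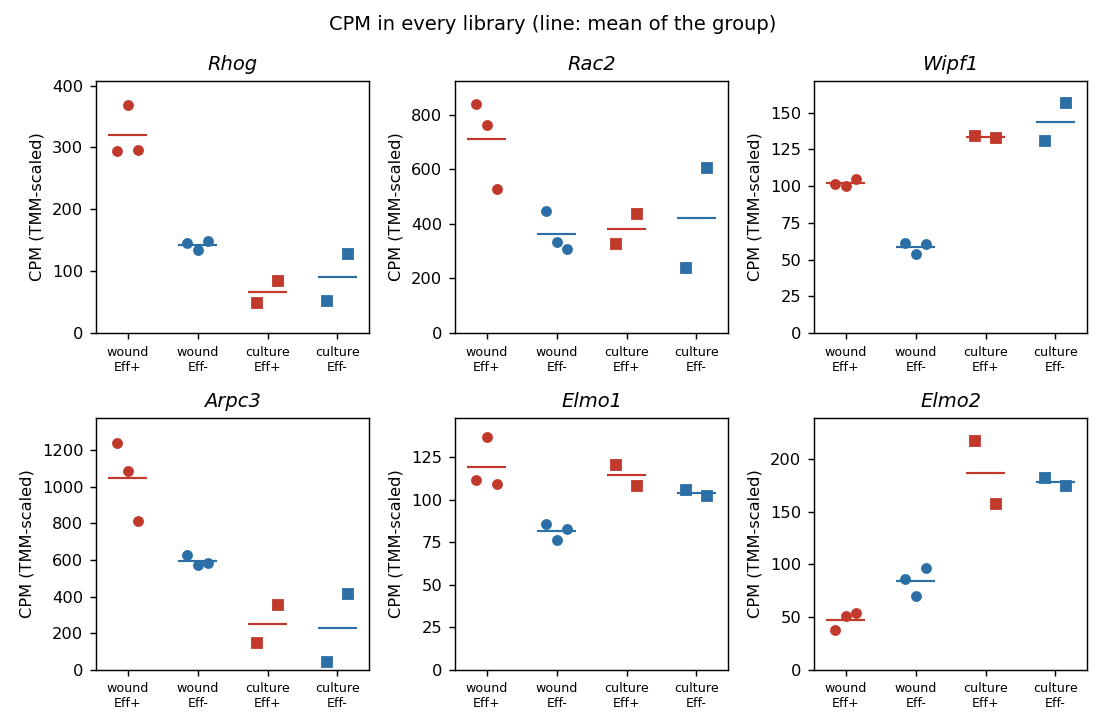
Scaled CPM (y axis, from 0, scaled within each set) of the 5 called genes and of Elmo1 in all 10 libraries, with a line at each group mean; wound libraries are circles, culture libraries squares, Eff+ red and Eff- blue. Rhog and Wipf1 show a clear gap between the wound groups, at 294 to 368 against 135 to 149.5 CPM and 100.1 to 105 against 53.7 to 61.1 CPM.

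Arp2/3, the branching machine itself, has 7 subunits, of which 1 rose and 6 did not pass. Arpc3 (ENSMUSG00000029465, chromosome 5 from 122529941 to 122552247, plus strand) stood at 1240, 1089 and 813 CPM in wound Eff+ and at 626, 571 and 581 CPM in wound Eff-. Every Eff+ library was above every Eff- library. It rose 1.77-fold (log2 0.82, SE 0.20, adjusted p = 0.0404, edgeR), and without both libraries numbered 2 the log2 difference was 0.76 (adjusted p = 0.342, edgeR). Leaving out any 1 library other than the Eff+ library numbered 3 ended this call too, at adjusted p of 0.0765 to 0.144 (log2 0.68 to 0.84, edgeR). For the other 6 subunits the log2 differences ran from -0.06 for Arpc4 to 0.27 for Arpc5, with standard errors of 0.19 to 0.23 and groups that overlapped. Actr2 and Actr3, the actin-related proteins that start the new filament, differed by 0.12 and 0.10.

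The share of Arpc3 in the complex's reads, which like the paralogue shares needs no scaling between libraries, showed the same order. Per kilobase it made up 14.0, 15.02 and 13.7% in wound Eff+ and 8.80, 9.48 and 10.2% in wound Eff-. The groups did not overlap, with means of 14.3% ± 0.681 (SD, n = 3) and 9.50% ± 0.698 (SD, n = 3), and an exact permutation test of 3 against 3 cannot go below 0.1. Arpc2 (26.0 to 27.98% in Eff+) and Arpc5 (21.9 to 22.5%) were the largest parts, and Arpc4 the smallest (4.92 to 5.51%). Since shares sum to 1 whole, a higher Arpc3 share lowers the rest together. In culture the complex was less even. Arpc3 made up 2.15 and 5.49% in Eff+ and 0.730 and 6.10% in Eff-, and Actr2 made up 21.9 and 12.5% in Eff+ and 36.5 and 8.19% in Eff-. The high Actr2 and low Arpc3 shares were both in the libraries numbered 1, whichever the sort.

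**Figure D4:**
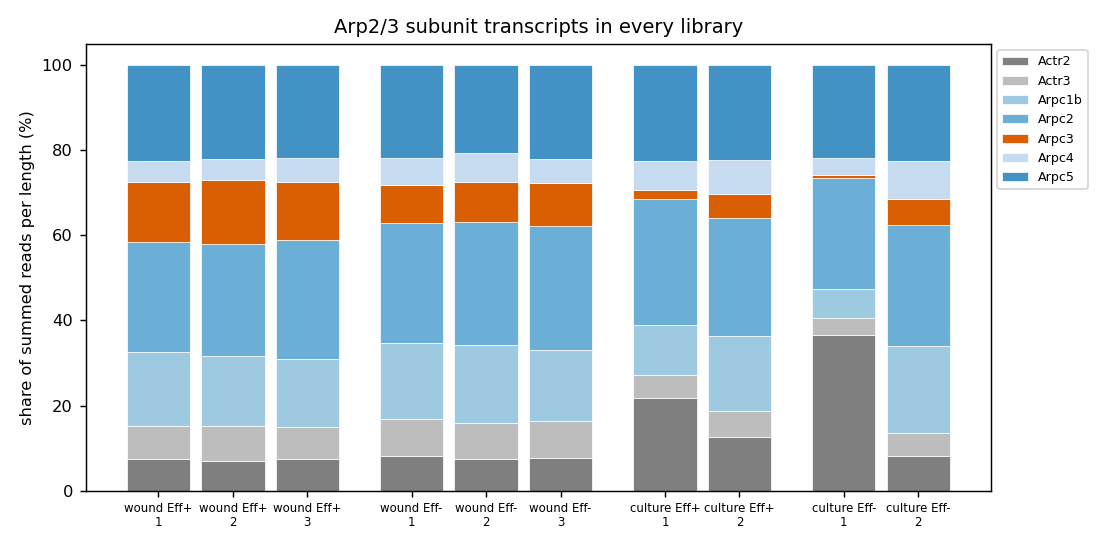
Share of each Arp2/3 subunit in the complex's reads per length (y axis, %), 1 stacked bar per library. The Arpc3 segment (orange) is 13.7 to 15.02% in wound Eff+ and 8.80 to 10.2% in wound Eff-, and the Actr2 segment (dark grey) is widest, at 21.9 and 36.5%, in the culture libraries numbered 1.

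Downstream genes that recycle filaments and shape the cup did not pass. Coro1a, the coronin of white blood cells, stood at 1134, 1089 and 775 CPM in wound Eff+ and at 871, 677 and 567 CPM in wound Eff-, with overlap (log2 0.50, SE 0.23, adjusted p = 0.197, edgeR). Cfl1, the cofilin that severs filaments, differed by -0.02 (SE 0.17), and Pfn1, the profilin that loads actin monomers, by 0.27 (SE 0.20). Pfn1 was the most abundant of the 35 genes per kilobase in the wounds, at means of 1228 CPM per kilobase in Eff+ and 1020 in Eff-.

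Ezrin and moesin are relatives that link actin to the membrane. Msn stood at 1400, 1830 and 1579 CPM in wound Eff+ and at 976, 909 and 1238 CPM in wound Eff-, without overlap (log2 0.62, SE 0.20, adjusted p = 0.0860, edgeR). Ezr was the more variable, at 245, 649 and 568 CPM in Eff+ and 154, 199 and 400.4 CPM in Eff- (log2 0.96, SE 0.45, adjusted p = 0.200, edgeR). Its fold was close to that of Rac2, with overlapping groups. Dnm2, the dynamin that cuts vesicles from the membrane, stood at 104 to 134 CPM in Eff+ and at 87.1 to 106 CPM in Eff- (log2 0.38, SE 0.17, adjusted p = 0.175, edgeR).

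Further genes of the same route, which are not among the 35, were counted from lists of cytoskeletal genes. Of 17 further WAVE, WASP and Arp2/3 genes tested, 2 rose and none fell (11.8%, beside 7.39% of all genes called higher), with a median log2 of -0.09. Cyfip2, the paralogue of Cyfip1, stood at 44.2, 49.3 and 25.9 CPM in Eff+ and at 14.2, 16.2 and 17.1 CPM in Eff-. It rose 2.51-fold (log2 1.33, adjusted p = 0.0217, edgeR), whereas the Cyfip1 value was below 0. Gmfg, which dismantles Arp2/3 branches, rose by 0.94 on the log2 scale.

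Of 56 actin monomer, filament and cortex genes, 11 rose and 1 fell (19.6 and 1.79%, beside 7.39 and 3.79%), with a median log2 of 0.11. The 6 of smallest p were the crosslinker Actn1 (log2 1.40, adjusted p = 0.0097, edgeR), the formins Fmnl1 (1.18) and Diaph1 (0.99), the myosin light chain Myl12b (0.99), the leukocyte bundling protein Lcp1 (1.13) and the focal adhesion gene Zyx (0.91). Coro7, a coronin of the Golgi, fell by 0.91. No gene of these 2 lists was called without the wound Eff+ library numbered 2 or without both libraries of that number.

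In cultured macrophages none of the 34 genes tested was called in either direction, and neither was any of the 14867 genes tested (0% each way), by edgeR's quasi-likelihood test with Benjamini-Hochberg adjustment. At an unadjusted p under 0.05 there were 115 genes, none among the 34, and DESeq2 called 2 genes, also none among them. Gulp1 was too low to be tested. The median log2 difference was 0.06, beside -0.05 over all genes. Groups did not overlap in 3 of the 34 genes with Eff+ higher (Elmo1, Crkl and Cyfip1) and in 1 with Eff+ lower (Rhoa), beside 11.3 and 9.42% of all genes.

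The 5 culture genes of smallest p are given in full, none of them past a p of 0.05. Crk stood at 78.4 and 139 CPM in Eff+ and at 47.4 and 95.2 CPM in Eff- (log2 0.61, SE 0.56). Rhoa stood at 382 and 334 CPM in Eff+ and at 489 and 446 CPM in Eff- (log2 -0.39, SE 0.48). Coro1a stood at 179 and 290.4 CPM in Eff+ and at 230.5 and 409 CPM in Eff- (log2 -0.45, SE 0.56). Rhoa was lower in both Eff+ libraries than in either Eff- library, whereas Crk and Coro1a overlapped and were higher in the libraries numbered 2. Rhog, called higher in the wounds, stood at 48.9 and 83.6 CPM in Eff+ and at 52.4 and 128 CPM in Eff- (log2 -0.45, SE 0.60). Cyfip1 stood at 542 and 493 CPM in Eff+ and at 404 and 443 CPM in Eff- (log2 0.29, SE 0.49).

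Of the other genes called in the wounds, Rac2 stood at 325 and 435 CPM in Eff+ and at 239 and 605 CPM in Eff-, so that both Eff+ values lay between the Eff- values. Arpc3 stood at 144 and 355 CPM in Eff+ and at 44.0 and 414 CPM in Eff-. Wipf1 was steadier, at 134 and 133 CPM in Eff+ and 131 and 157 CPM in Eff-. Elmo2 stood at 217 and 158 CPM in Eff+ and at 182 and 175 CPM in Eff-. Among genes not called in the wounds, Hcls1 stood at 327 and 314 CPM in Eff+ and at 289.8 and 449 CPM in Eff-, and Msn at 1382 and 1502 CPM in Eff+ and at 840.3 and 1440 CPM in Eff-. Ezr was low and even in culture, at 49.0 and 44.0 CPM in Eff+ and at 46.1 and 46.9 CPM in Eff-.

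The paralogue pairs of the signalling route showed no separation of the cultured groups beyond Elmo1 and Crkl. Elmo1 stood at 121 and 108 CPM in Eff+ and at 106 and 102 CPM in Eff-, and Crkl at 47.2 and 44.9 CPM in Eff+ and at 39.9 and 43.0 CPM in Eff-. Both gaps were small beside their standard errors (log2 0.14, SE 0.39, and log2 0.15, SE 0.36). Dock1 stood at 80.7 and 53.0 CPM in Eff+ and at 68.1 and 51.4 CPM in Eff-. Dock2 stood at 180.3 and 159 CPM in Eff+ and at 149.8 and 196 CPM in Eff-.

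Rac1 ran from 147 to 450.3 CPM in the 2 cultured Eff- libraries, with 186 and 355 CPM in Eff+. Vav1 stood at 176 and 168 CPM in Eff+ and at 136 and 211 CPM in Eff-, and Vav3 at 31.8 and 30.2 CPM in Eff+ and at 52.8 and 21.4 CPM in Eff-. For all 3 the Eff+ values lay between the Eff- values, as they did for Rac2 and Arpc3.

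Taking the ratio of Eff+ to Eff- within each library number, 29 of the 34 genes were higher in Eff+ among the libraries numbered 1 and 10 among those numbered 2, with medians of 0.28 and -0.16 on the log2 scale. Over all genes tested these medians were -0.01 and 0. No label says that a number marks a shared culture. In Eff+ 8 of the 34 genes were higher at both numbers and 3 were lower at both: Rhoa, Coro1a and Rhog. Of the 14867 genes tested, 3483 were higher at both numbers and 3541 were lower at both. Dendritic cell markers took 0.0165 to 0.0648% of counts in the cultured Eff- libraries and 0.00150 to 0.00459% in the Eff+ libraries. T and NK cell markers took 0.00529 to 0.00698% in the cultured Eff- libraries and 0.0178 to 0.0188% in the Eff+ libraries. The part of both marker sets in these values was not tested.

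**Figure D5:**
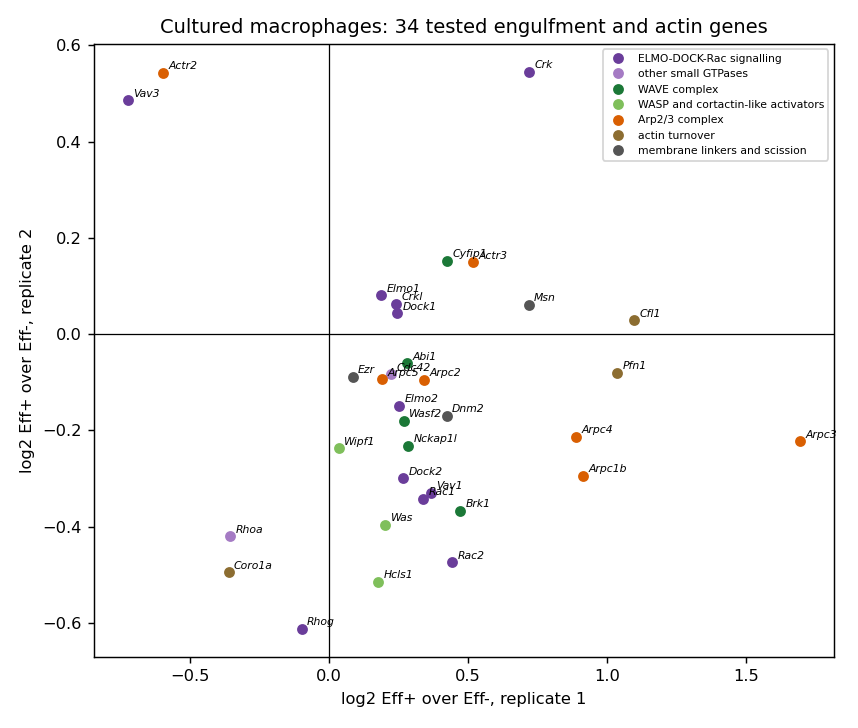
Log2 ratio of cultured Eff+ to Eff- for the 34 tested genes, among the libraries numbered 1 (x axis) and numbered 2 (y axis), 1 point per gene coloured by role. Most points lie right of 0 and below 0, so that 29 were higher in Eff+ at number 1 and 10 at number 2; Rhoa, Coro1a and Rhog lie below 0 on both.

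A fit over all 10 libraries asked whether the Eff+ to Eff- contrast was unlike in wound and culture. None of the 35 genes was called, nor any of the 20270 tested (0% in either direction), by edgeR's quasi-likelihood test with Benjamini-Hochberg adjustment. At an unadjusted p under 0.05 there were 2222 genes, 3 of them among the 35: Rhog, Wipf1 and Gulp1. The median log2 value in this fit was 0.324 over the 35 and 0.317 over all genes tested. For Rhog the wound difference exceeded the culture difference by 1.63 on the log2 scale (SE 0.56, adjusted p = 0.333, edgeR), and for Wipf1 by 0.93 (SE 0.35, adjusted p = 0.371, edgeR). Without the cultured Eff- library numbered 2 the values were 0.79 for Rhog and 0.74 for Wipf1. With all 10 libraries DESeq2 called both genes, with adjusted p of 0.0332 for Rhog and 0.00201 for Wipf1. DESeq2 called 3.22% of the 20270 genes higher and 0.71% lower in this comparison. Gulp1 gave 4.34 (SE 1.71, adjusted p = 0.398, edgeR), from 0 to 20 counts in culture.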

How the data were processed

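The authors deposited raw read counts per gene. For the wound libraries these came from featureCounts 1.6.0 at its default settings, without a strand option, against Ensembl release 106 of GRCm39, per the file headers. Trimmomatic 0.39 was used, per the submitters' processing notes. Neither the aligner nor the culture table's counting command is given in the sources used here. Of the culture table, 4 columns could be tied to no sample and were left out. Symbols came from GENCODE vM21, matching 52081 of 55414 identifiers (99.91% of counts).

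Samples were grouped by title. Whether replicates came from different animals or cultures is not labelled. The p-values therefore reflect the spread of these libraries alone, which may be technical. No replicates agreed within sampling noise (chi-square per degree of freedom of 78.8 to 460 over genes). Counting error is small at these depths beside that spread.

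Wound and culture were fitted separately by edgeR 4.0.16 (R 4.3.3), using filterByExpr, trimmed mean of M-values scaling and the quasi-likelihood test without covariates, with Benjamini-Hochberg adjustment over all genes tested and a threshold of 0.05. A fit over 10 libraries tested the difference between the sets. Standard errors (SE) were derived from the F statistic of each log2 fold change. Ratios within a library number were taken after adding 0.5 CPM. Shares used the annotated gene length. The procedure was tested on simulated counts. Promoters are RefSeq's on GRCm38.p6 and were matched by symbol.

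The 35 genes, the lists and the tests were chosen with earlier results of these data known. Values in every library are given for genes called in any of the 3 edgeR fits, for the 5 paralogue pairs of the signalling group and for the 5 genes of smallest p in culture, and other lists name up to 6 called genes per direction by smallest p. Where 2 identifiers shared a symbol (Myl12b), the first was used. Alternatives were 3 other scalings, DESeq2 1.42.0, voom from limma 3.58.1, other filters, a replicate block and leaving out libraries. The voom, replicate block and leave-one-out alternatives for the difference between sets were added after seeing the data. Another list of the same route is not reported here.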

Additional observations from a re-analysis of the deposited data

How the results depend on the processing

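In the wounds, 4 of the 35 genes were called higher and 1 lower. The same genes were called with relative log expression or upper quartile scaling, limma-voom and no filter on low counts. Under these, 4.56 to 8.21% of all genes were called higher and 2.48 to 4.98% lower. With at least 1 CPM required, 5 were called higher (Elmo1 added) and 1 lower, or 14.3 and 2.86%, beside 11.3 and 5.71% of all genes. With library totals only, 1 was called higher and 3 lower (2.86 and 8.57%, beside 4.79 and 17.8% of all genes). The median over all genes moved from -0.03 to -0.42 under that scaling, and the median of the 35 from 0.30 to -0.09. DESeq2 called 8 higher (adding Elmo1, Vav1, Hcls1 and Msn) and 2 lower (adding Dock1), or 22.9 and 5.71%, beside 12.9 and 8.26% of all genes. Leaving out 1 library at a time left 0 to 4 called higher (0 to 11.4%) and 0 to 0 called lower. Of all genes, 0 to 5.66% were then called higher and 0 to 2.88% lower. Leaving out the Eff+ or the Eff- library numbered 2 alone left 0 higher, beside 0 and 1.13% of all genes. Without both, 0 were higher and 0 lower, among 2212 genes with an unadjusted p under 0.05.

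The replicate block called 8 higher (adding Elmo1, Crkl, Hcls1 and Ezr) and 1 lower, or 22.9 and 2.86%, beside 11.5 and 8.51% of all genes. Same-numbered wound libraries deviated together with correlations of 0.48, 0.03 and 0.28. In culture same-numbered libraries gave 0.74 and unlike-numbered ones -0.74. With 2 libraries in each group this is 1 value, because the deviations within a group mirror each other. No pairing is labelled, so the main fits did not take the numbers as pairs. Each wound library correlated best with its own number for numbers 1 and 3 and not for number 2. With the block none of the 35 was called in culture or for the difference between sets. Over all genes it called 9 higher and 39 lower in culture, and 353 higher and 88 lower for the difference, where the fits without it called none.

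In culture none was called under any of 12 alternatives. Without the Eff- library numbered 2, 31 of the 34 genes lay above 0, with a median of 0.56, beside -0.16 over all genes. The only Eff- library in that fit was the one numbered 1, with counts in 44836 genes. For the difference between sets, DESeq2 called 2 higher and the other 18 alternatives none. No called gene changed direction under any alternative. The causes of these changes were not tested. Gulp1 is limited by depth, with 28 to 170 counts in the wounds and 0 to 20 in culture. A comparison of protein sequences was planned and not run.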
